A study of Mus musculus with 6 samples.

Results

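The 42 collagen genes described here are those whose symbol reads Col, a type number, the letter a and a chain number, out of 18193 genes with a probe set of a single symbol on an Affymetrix mouse array. Of the 82 collagen probe sets, the 1 with the highest mean log2 signal over the 6 arrays stood for each gene. By type, 11 of these genes encode fibrillar collagens, 6 encode the type IV chains of basement membranes, and the remaining 25 belong to other types: 9 FACIT (fibril-associated) genes, 5 of the beaded filament type VI, 4 transmembrane, 3 network-forming, 2 multiplexin, and Col7a1 and Col26a1. The genes Col6a6, Col21a1 and Col28a1 were looked for by name, had no probe set of a single symbol in the annotation used, and were not analysed here.

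The RNA was that of mouse pancreatic islets, with 3 arrays of controls and 3 of Vhlh knockouts. The knockout was made with a RIP2-Cre transgene, an insulin-promoter Cre that acts in beta cells, on a floxed Vhlh gene (Vhlh fl/fl). Other islet cells keep the gene, and the labels do not say whether the controls carried the Cre or the floxed allele. In each genotype, arrays 01, 02 and 03 came from mice of 26 weeks (male), 20 weeks (female) and 18 weeks (male), and the number of mice behind an islet batch was not given, so p-values measure the spread between these samples. The same-numbered control and knockout are called a pair below.

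Collagens are secreted proteins of 3 chains wound into a triple helix. Fibrillar collagens (types I, II, III, V, XI, XXIV and XXVII) form or organise the fibres of connective tissue and are made mainly by fibroblasts and related stromal cells. Type IV forms the sheet-like network of basement membranes, which in the islet lies around the capillaries, while beta cells themselves make little of it. The other types decorate fibres, link them to basement membranes, form hexagonal networks or stay in the cell membrane. Von Hippel-Lindau protein, encoded by Vhlh (Vhl in the annotation), marks hypoxia-inducible factor (HIF) for degradation, and several enzymes that modify collagen chains are known HIF targets.

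The samples had the markers of islets and of the cells left around them. Among beta-cell markers, Iapp, the amyloid peptide gene, had signals between 24545 and 64210. Signals are the authors' MAS5 intensities on a linear scale, with array medians between 102.1 and 122.959. Vhl had a mean log2 signal of 9.29 in controls and 8.59 in knockouts (limma adjusted p 0.9998), a weak check of the labels because islets also hold cells with the intact gene. Knockout 03 stood apart: the summed signal of 9 acinar (exocrine) genes was 7600 there and 75216 on control 03, against 309060 to 431808 on the other 4 arrays. A gene was tested if its signal exceeded the array median on at least 3 of the 6 arrays. That left 11609 genes, including 20 collagens: 7 fibrillar, 3 type IV and 10 others. Of these 20, 12 were above the median on all 6 arrays and 6 were above it on more knockout than control arrays.

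The sequences before 3 of these genes are shown because the genes stand for the patterns described below: Col13a1 had higher signals on every knockout array than on any control array, and Col1a2 and Col3a1 were highest on knockout 03. Each is the stretch of 250 bases that ends before the gene's start, on the gene's strand, from RefSeq (GRCm38.p6). The HIF core motif in its forms ACGTG and GCGTG, and the letters TATAAA of the TATA box motif, both searched on both strands, are in capitals.
Col13a1 (chr10:61979109-61979358, minus strand): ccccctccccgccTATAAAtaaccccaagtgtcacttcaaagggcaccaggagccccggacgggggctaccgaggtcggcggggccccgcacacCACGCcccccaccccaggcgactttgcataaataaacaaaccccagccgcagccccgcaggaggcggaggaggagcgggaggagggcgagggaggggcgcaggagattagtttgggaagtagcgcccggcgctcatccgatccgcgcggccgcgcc
Col1a2 (chr6:4505368-4505617, plus strand): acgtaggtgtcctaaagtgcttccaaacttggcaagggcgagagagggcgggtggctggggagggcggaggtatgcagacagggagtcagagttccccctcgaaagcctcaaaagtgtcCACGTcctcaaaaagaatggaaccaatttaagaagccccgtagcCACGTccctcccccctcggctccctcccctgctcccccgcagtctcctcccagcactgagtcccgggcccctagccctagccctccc
Col3a1 (chr1:45311288-45311537, plus strand): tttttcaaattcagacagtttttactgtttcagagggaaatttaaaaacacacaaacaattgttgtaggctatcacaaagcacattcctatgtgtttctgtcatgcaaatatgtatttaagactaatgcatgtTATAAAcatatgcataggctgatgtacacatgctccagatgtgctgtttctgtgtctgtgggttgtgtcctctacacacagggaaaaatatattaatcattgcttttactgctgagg
Col13a1 held 1 GCGTG on the reverse strand, Col1a2 held 2 ACGTG on the reverse strand, and Col3a1 held neither form. The marked TATAAA began at -237 from the annotated start in Col13a1 and at -117 in Col3a1, and whether it acts as a TATA box was not tested.

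Such stretches of 250 bases were found for 33 of the 42 genes (36 windows). ACGTG lay in 4 of these 36 windows, against 16.6% of all 32851 RefSeq windows of 250 bases before a start. GCGTG lay in 7 of 36, against 28.2% of all, and TATAAA in 5 of 36, against 12.4%. A match describes letters only. Col4a1 and Col4a2, on opposite strands of chromosome 8, have annotated starts that lie 21 bases apart (11312826 and 11312805).

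No collagen gene passed the test between genotypes. In limma over the 11609 genes, 0 of the 20 collagens had an adjusted p under 0.05, where 0.0172% of all genes did (2 genes), and with the replicate block, which compares within pairs, again 0 of 20 against 0.0517% (6 genes). The lowest adjusted p of a collagen was 0.9998 without the block and 0.840 with it. At an unadjusted p under 0.05, 4 collagens were higher in the knockout, Col4a4, Col6a1, Col8a1 and Col13a1, and 0 were lower, against 1.98% and 0.603% of all genes tested. Of these 4, Col4a4 met the filter only through its knockout arrays, with 1 control array above the median. With the replicate block, Col1a2, Col3a1, Col5a2, Col6a1, Col8a1 and Col13a1 were higher at that level, 6 of 20 against 3.65% of all genes.

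The mean log2 difference, knockout minus control, was positive for all 20 collagens tested and for 32 of the 42 with a probe set, against 50.0% of all genes tested. Its median was 0.81 over the 20 collagens tested, 0.47 over the 42 and 0.09 over the 22 dim ones, against -0.00028 over all genes tested. The differences were carried unevenly by the 3 pairs. Over the 20 collagens, the mean difference was 0.81 in pair 01, 0.15 in pair 02 and 1.38 in pair 03, so that 34.6%, 6.42% and 59.0% of the summed difference rested on these pairs. Over all genes tested the same means were 0.01, 0.04 and 0.05. The knockout was higher for 17, 13 and 16 of the 20 collagens in pairs 01, 02 and 03, against 49.6%, 51.1% and 51.8% of all genes tested. By more than 1 on the log2 scale it was higher for 7, 1 (Col15a1) and 12 of the 20, against 7.15%, 4.6% and 7.55%. Knockout 03 was the highest of the 6 arrays for 16 of the 20 collagens and for 18.6% of all genes tested, and control 01 was the lowest for 8 of the 20 and for 12.2% of all genes.

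**Figure D1:**
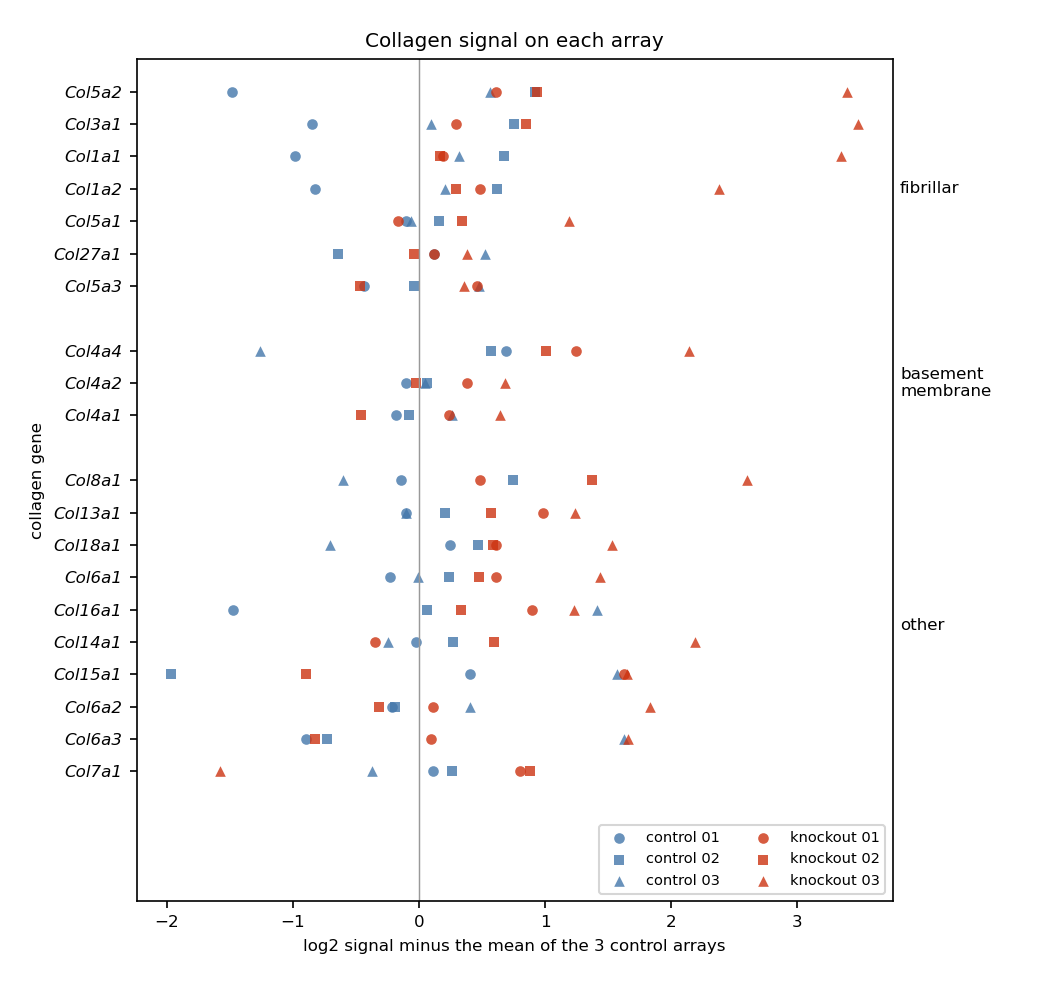
Log2 signal of the 20 collagen genes tested on each of the 6 arrays, minus the mean of the 3 control arrays, with controls in blue, knockouts in red and the array number as the symbol. The red triangles of knockout 03 lie farthest right for 16 of the 20 genes, and the knockout and control points of Col13a1, Col6a1, Col4a4 and Col18a1 do not overlap.

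The main interstitial fibre genes were high on knockout 03 and low on control 01. Col1a1 and Col1a2 encode both chains of type I collagen, the chief collagen of connective tissue. Col1a1 had signals of 62.8, 198 and 155 in controls and 142, 139 and 1265 in knockouts (arrays 01, 02 and 03 in that order, as in every such list). Col1a2 had signals of 365, 992 and 749 in controls and 905, 795 and 3376 in knockouts. On these probe sets knockout 03 alone lay above every control, and the other 2 knockouts lay inside the control range. The log2 difference was 1.23 (SE 0.84) for Col1a1 and 1.05 (SE 0.57) for Col1a2, and without knockout 03 it was 0.18 and 0.39. A second Col1a2 probe set, above the median on 6 arrays, also differed by 1.05, with 0.41, 0.38 and 2.37 in pairs 01, 02 and 03. On that set knockout 02 (282) also lay above every control (119, 218 and 205).

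Col3a1 encodes the single chain of type III collagen, which is found with type I in soft tissue and around vessels. Its signals were 384, 1168 and 739 in controls and 849, 1248 and 7747 in knockouts, and 1 of the 3 knockouts lay inside the control range. Its log2 difference was 1.54 (SE 0.76, limma adjusted p 0.9998), with 1.14, 0.09 and 3.39 in pairs 01, 02 and 03, so that 73.2% rested on pair 03. Without knockout 03 the difference was 0.57. A second, dimmer Col3a1 probe set, above the array median on 3 arrays, differed by 0.24 and was lower in the knockout in pairs 01 and 02 (-0.98, -0.26 and 1.95), and averaging the probe sets of the gene gave 0.89.

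Type V collagen sets the diameter of type I fibres. Col5a2 had signals of 71.0, 376 and 294 in controls and 304, 381 and 2097 in knockouts. Its log2 difference of 1.65 (SE 0.80) was the highest of the 20, and its pairs gave 2.10, 0.02 and 2.84. Col5a1 had signals of 133, 159 and 137 in controls and 127, 180 and 325 in knockouts, a log2 difference of 0.45 (SE 0.44). A second Col5a1 probe set, above the array median on 3 arrays, differed by 1.35, with -0.10, 2.18 and 1.98 in pairs 01, 02 and 03. Col5a3, the chain of a minor form, differed by 0.12 (SE 0.54), and 1 of its 3 pairs was higher in the knockout. Col27a1, a fibrillar collagen best known from cartilage, differed by 0.15 (SE 0.35), and its second probe set, almost as bright, by -0.10. Neither Col5a3 nor Col27a1 was highest on knockout 03, in contrast to Col1a1, Col1a2, Col3a1, Col5a1 and Col5a2.

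The 7 fibrillar collagens tested had a median log2 difference of 1.05, and the 11 with a probe set one of 0.45. Their mean was 0.94 in pair 01, -0.05 in pair 02 and 1.77 in pair 03, which is 35.2%, -1.91% and 66.7% of the sum. The median was 0.18 without knockout 03, 0.34 without both arrays numbered 03 and 0.64 without control 01. The 4 fibrillar genes not tested, Col2a1, Col11a1, Col11a2 and Col24a1, had signals between 4.04 and 127.4. Among them Col11a1, a chain of a collagen best known from cartilage, had control signals of 25.9, 30.4 and 52.0 and knockout signals of 75.4, 70.2 and 60.0, all below the array medians but with no overlap (two-sided exact permutation p 0.1, the smallest possible with 3 against 3).

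The type IV chains of the islet basement membrane were bright and differed little. Col4a1 and Col4a2 encode the chains found together in nearly all basement membranes. Col4a1 had signals of 2122, 2277 and 2892 in controls and 2848, 1751 and 3770 in knockouts. Col4a2 had signals of 694, 780 and 770 in controls and 974, 735 and 1201 in knockouts. Both were lower in the knockout in pair 02 and higher in the other 2 pairs, and the groups overlapped. The log2 difference was 0.14 (SE 0.33, 95% interval -0.60 to 0.88) for Col4a1 and 0.35 (SE 0.28, interval -0.28 to 0.98) for Col4a2. Without knockout 03 these were -0.11 and 0.18, and a second bright Col4a1 probe set differed by 0.25.

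The other type IV chains are those of specialised membranes, such as that of the kidney glomerulus, and were dim. Col4a4 had signals of 115, 106 and 29.7 in controls and 169, 143 and 313 in knockouts, so that every knockout lay above every control. Its log2 difference of 1.47 (SE 0.64) had pair values of 0.56, 0.44 and 3.40, of which 77.3% rested on pair 03, where control 03 was the lowest array and knockout 03 the highest. Without both arrays numbered 03 it was 0.50. Col4a3, Col4a5 and Col4a6 were not tested and had differences of -0.17, -0.05 and -1.12. Over the 3 type IV genes tested the median was 0.35, and 25.1%, -0.464% and 75.4% of the summed difference rested on pairs 01, 02 and 03, while over all 6 the median was 0.05. The pair 03 share came mostly from Col4a4, since Col4a1 and Col4a2 differed by 0.38 and 0.64 in that pair.

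**Figure D2:**
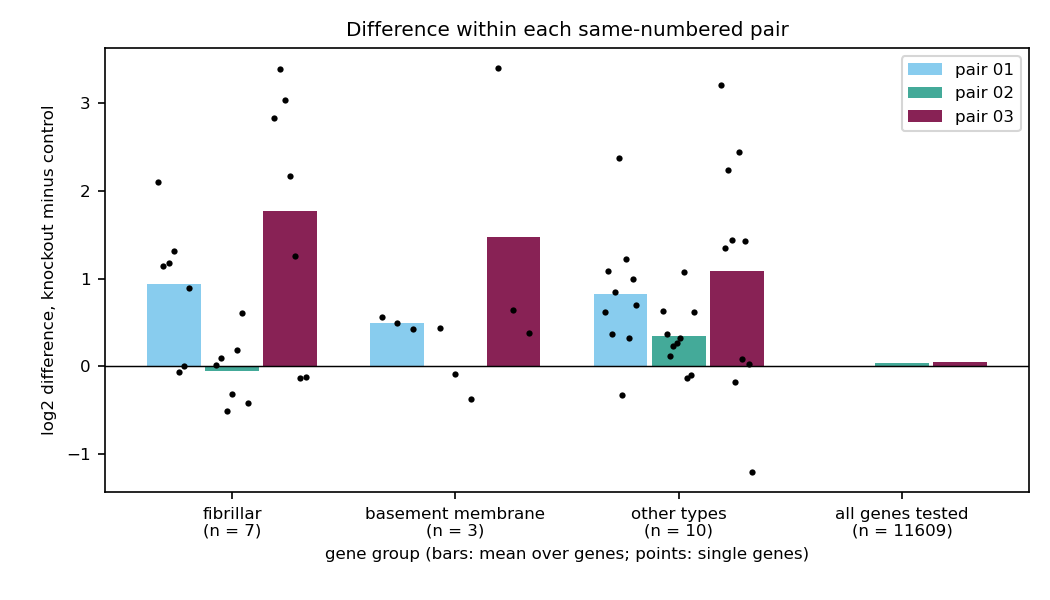
Log2 difference, knockout minus control, within each same-numbered pair, as the mean over the tested genes of each collagen group and over all 11609 genes tested (bars), with single collagen genes as points. The bar of pair 03 is the highest in each collagen group, at 1.77, 1.47 and 1.08, and that of pair 02 is -0.05, -0.01 and 0.34. The type IV bar of pair 03 came mostly from Col4a4 (3.40), with Col4a1 and Col4a2 at 0.38 and 0.64.

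Col13a1 had the lowest unadjusted p of the collagens tested, and its difference was seen in every pair. It encodes a transmembrane collagen found at cell junctions and, best known, at the neuromuscular synapse. Its signals were 363, 450 and 362 in controls and 771, 580 and 921 in knockouts, so that every knockout lay above every control. On the log2 scale the control signal averaged 8.61 ± 0.18 (SD, n = 3), and that of the knockouts 9.54 ± 0.34 (SD, n = 3), a 1.91-fold difference. The log2 difference was 0.93 (SE 0.29, 95% interval 0.28 to 1.58, limma unadjusted p 0.00988, adjusted p 0.9998; adjusted p 0.840 with the replicate block), and an exact permutation test over the 6 arrays, two-sided, gave 0.1, the smallest p possible. The pair values were 1.09, 0.36 and 1.35, and 48.1% of their sum rested on pair 03. Leaving out any 1 array gave values between 0.78 and 1.11, and leaving out both arrays numbered 03 gave 0.73.

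Non-overlapping groups with a higher knockout were seen for 4 of the 20 collagens tested, Col4a4, Col6a1, Col13a1 and Col18a1, against 3.98% of all genes tested. The reverse was seen for 0 of 20, against 2.77%. Col4a4 was tested only because of its knockout signals, which were above the median on 3 arrays, against 1 control array. On the other, dimmer Col4a4 probe sets the groups overlapped, with differences of 0.92 and 0.56. The multiplexin Col18a1, the vessel-associated collagen whose end fragment is endostatin, had signals of 136, 159 and 70.6 in controls and 176, 173 and 333 in knockouts. Its log2 difference of 0.91 (SE 0.48) rested to 82.1% on pair 03 and was 0.25 without that pair. On a second, dimmer Col18a1 probe set the groups overlapped, with 77.5, 97.0 and 107 in controls and 27.7, 191 and 316 in knockouts. The other multiplexin, Col15a1, found in the basement membrane zone of capillaries, had signals of 127, 24.6 and 286 in controls and 298, 51.8 and 302 in knockouts. Its difference of 0.79 (SE 0.97) ran the other way over the pairs, with 1.23, 1.07 and 0.08, and 3.39% of the sum rested on pair 03.

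Type VI collagen forms beaded filaments between basement membranes and fibres from chains that assemble together. The 3 chains tested here were all highest on knockout 03, and among the knockouts all were lowest on knockout 02. Among the controls all were lowest on control 01, and they differed in their level on control 03. Col6a1 had signals of 190, 263 and 222 in controls and 341, 310 and 603 in knockouts, higher in 3 of 3 pairs. Its log2 difference was 0.84 (SE 0.35, 95% interval 0.04 to 1.63) and 0.54 without both arrays numbered 03. Col6a2 had signals of 386, 392 and 592 in controls and 484, 358 and 1594 in knockouts. Its probe set carries the suffix _x_at, given to sets whose probes may hybridise to other transcripts. Its difference was 0.54 (SE 0.52), and -0.10 without knockout 03. A second, dimmer Col6a2 probe set gave 2.22, with pair values of 3.70, 0.31 and 2.64 and its lowest signal, 44.6, on control 01. Col6a3 had signals of 235, 264 and 1354 in controls and 468, 247 and 1382 in knockouts, high on both arrays numbered 03, with a difference of 0.31 (SE 0.76).

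Among the other types, Col8a1, a network-forming collagen of vessel walls and corneal endothelium, had signals of 207, 382 and 150 in controls and 318, 589 and 1380 in knockouts. It was higher in 3 of 3 pairs, by 0.62, 0.63 and 3.21, with a mean of 1.48 (SE 0.55, limma unadjusted p 0.0232, adjusted p 0.9998). Its second probe set, above the array median on 3 arrays, differed by -0.65. The FACIT collagen Col14a1 had signals of 258, 316 and 220 in controls and 205, 395 and 1195 in knockouts, a difference of 0.81 (SE 0.56) that was -0.0027 without both arrays numbered 03. Its second probe set, above the array median on 4 arrays, differed by 0.57, with 0.88, -0.06 and 0.88 in pairs 01, 02 and 03. Col16a1, another FACIT collagen, had signals of 59.9, 174 and 442 in controls and 310, 209 and 389 in knockouts, and its difference of 0.82 (SE 0.65) came from pair 01, where it was 2.37. Col7a1, the anchoring fibril collagen, differed by 0.04 (SE 0.70) and was the 1 collagen tested with its lowest signal, 36.4, on knockout 03.

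Over the 10 collagens of other types that were tested the median log2 difference was 0.81, and over all 25 it was 0.54. Pairs 01, 02 and 03 carried 36.6%, 15.1% and 48.3% of the summed difference of the 10. Without knockout 03 the median was 0.57, and without both arrays numbered 03 it was 0.58. Of the 15 not tested, Col19a1 and Col9a2 were also higher in 3 of 3 pairs, at 0.71 and 0.48, and the rest were higher in 1 or 2 pairs. Across the 20 collagens tested, 8 were higher in 3 of 3 pairs (Col3a1, Col4a4, Col5a2, Col6a1, Col8a1, Col13a1, Col15a1 and Col18a1) and 0 were lower in all 3, against 13.7% and 11.3% of all genes tested. For Col3a1, Col4a4, Col5a2, Col8a1 and Col18a1, a dimmer probe set was lower in the knockout in at least 1 pair. Col6a1, Col13a1 and Col15a1 had 1 probe set each.

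**Figure D3:**
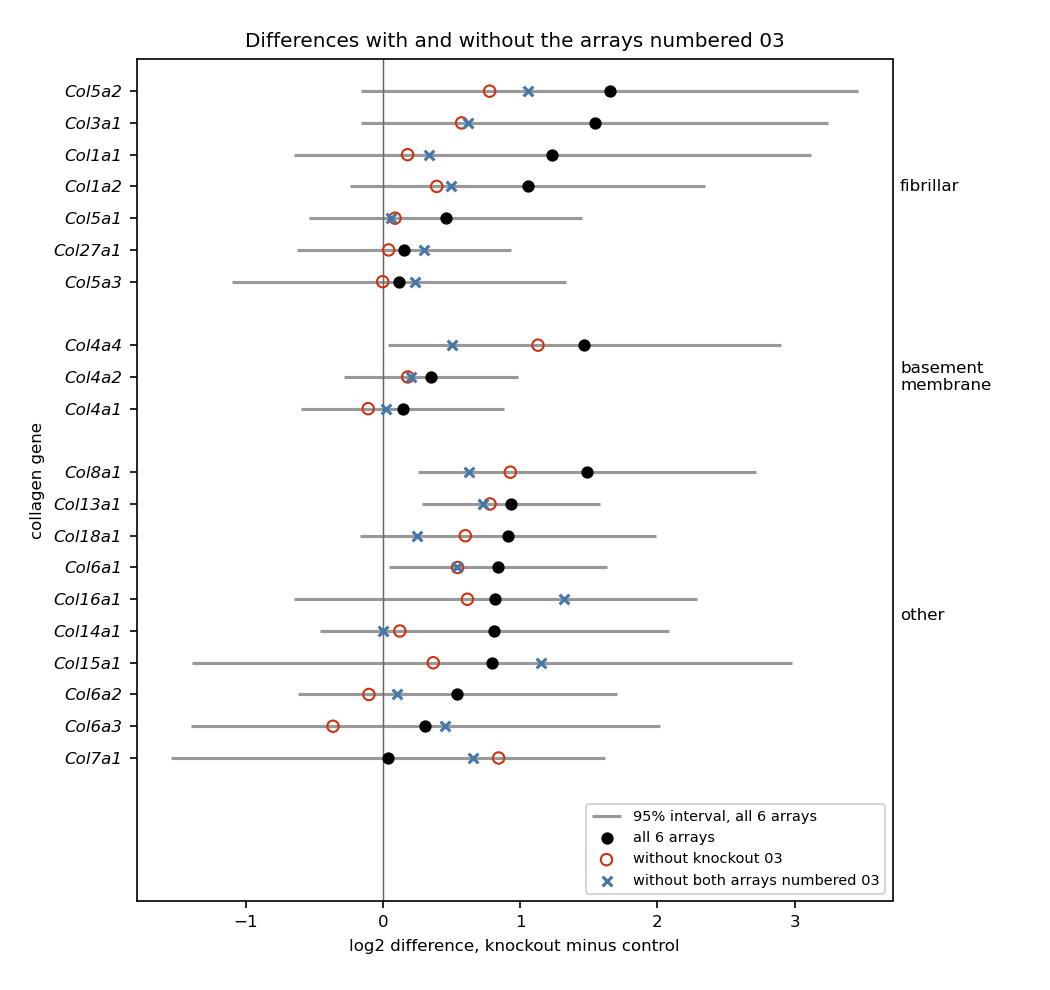
Log2 difference, knockout minus control, of the 20 collagen genes tested, with limma's 95% interval over all 6 arrays (black points, grey lines), without knockout 03 (red circles) and without both arrays numbered 03 (blue crosses). Col5a2, Col3a1, Col1a1 and Col1a2 at the top lie between 1.05 and 1.65 over all arrays and between 0.18 and 0.78 without knockout 03, and Col13a1 lies at 0.93 and 0.78.

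Of 15 tested genes that modify and fold collagen chains, 11 had a positive difference and 4 a negative one, with a median of 0.32, and 0 passed over all genes. At an unadjusted limma p under 0.05, 4 of the 15 were higher in the knockout and 0 were lower, against 1.98% and 0.603% of all genes tested. These were Plod2, a lysyl hydroxylase, at 1.94 (SE 0.47), Colgalt2, a collagen galactosyltransferase, at 1.18 (SE 0.32), and P4ha1 and P4ha2, catalytic subunits of prolyl hydroxylase, at 1.18 (SE 0.46) and 1.25 (SE 0.52). These 4 are named for their low p, and in pair 02 their values were 2.32, 1.10, 1.20 and 0.88, and without both arrays numbered 03 they were 1.69, 0.91, 0.79 and 1.03. Plod2 met the filter only through its knockout arrays, since its signals on controls 02 and 03 (75.6 and 64.1) lay below the array medians. Over the whole list, 7 of 15 were higher in 3 of 3 pairs, and the pair means were 0.22, 0.37 and 0.72. The brightest members were P4hb, the other subunit of prolyl hydroxylase, at 0.23, Mia3, a protein of procollagen export, at -0.34, and Ppib, a prolyl isomerase, at -0.13. Of 5 tested genes of procollagen processing and cross-linking, 3 were above 0, and the one of lowest p was Pxdn, the peroxidase that cross-links type IV collagen, at 0.79 (SE 0.44).

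The 12 tested partners of type IV in basement membranes included 10 with a positive difference and had a median of 0.46, and 0 passed or reached an unadjusted p under 0.05. Their pair means were 0.03, 0.35 and 0.82, so that 68.4% of the summed difference rested on pair 03. Knockout 03 was the highest array for 9 of the 12, against 18.6% of all genes tested. Lamb1, a laminin chain, differed by 0.89 (SE 0.40), Nid1, the nidogen that links laminin to type IV collagen, by 0.72 (SE 0.33), and the laminin chain Lama2 and the matricellular protein Sparc by 0.65 (SE 0.37) and 0.53 (SE 0.31). Of 4 tested collagen receptors 3 were above 0, with Itga1, an integrin chain that binds type IV collagen, at 0.46 (SE 0.33), and Ddr1, Itgb1 and Ddr2 at 0.37, 0.27 and -0.04. All 5 tested genes of collagen breakdown and its inhibitors were above 0, with a median of 0.74: Timp2, an inhibitor of metalloproteinases, was at 0.99 (SE 0.42), Timp3 at 0.62 (SE 0.33), and the metalloproteinases Mmp14 and Mmp2 at 0.76 (SE 0.43) and 0.74 (SE 0.52). For Mmp2, the type IV collagenase, the difference was 0.016 without both arrays numbered 03.

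Markers of stromal cells, taken as a mean or a sum, were also highest on knockout 03, which was the highest array for 7 of the 11 tested. These 11 stromal markers were on average 0.45, 0.91 and 1.51 above the control mean on knockouts 01, 02 and 03, where the 20 collagens were at 0.49, 0.27 and 1.59. The summed signal of the 13 stromal markers was 8766 to 11365 on controls and 11868 to 22528 on knockouts. Of its 3 brightest members, Rgs5 was highest on knockout 03, and Acta2 and Dcn on knockout 02 (3357 and 4258, against 1821 and 3205 on knockout 03). On knockout 02 the stromal sum was 17756 while the brightest probe sets of Col1a1 and Col1a2 lay inside the control range. A second Col1a2 probe set lay above that range there (282, against 218 on the highest control). Their part in the collagen differences was not tested. In RNA of whole islets, more cells of a type and more RNA per cell cannot be told apart.

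Endothelial markers were above 0 in 11 of 11 tested genes, with means of 0.45, 0.21 and 0.73 on knockouts 01, 02 and 03 and sums of 9618 to 10436 on controls and 12103 to 16541 on knockouts. The endothelial sum was highest on knockout 01. Knockout 03 was the highest array for 7 of the 11 endothelial and 3 of the 4 leukocyte genes tested, against 18.6% of all genes tested. Leukocyte markers had sums of 2565 to 5335 on controls and 2896 to 5866 on knockouts, and Schwann cell markers sums of 1551 to 2441 and 1514 to 2818. Duct markers had sums of 6794 to 10489 on controls and 5347 to 10394 on knockouts, with the lowest on knockout 03. Defining markers below the median of every array were Tie1 among endothelial, Cftr among duct, and Cd3e and Itgam among leukocyte genes. On control 03 the acinar sum was also low (75216), and there the mean of the collagens was 0.21 above the control mean. Beta-cell markers had sums of 100302 to 137622 on controls and 79280 to 151891 on knockouts, and alpha and delta cell markers sums of 102716 to 116440 and 92019 to 136405, both lowest on knockout 03. Taken as a mean, however, alpha and delta cell markers were 0.25 above the control mean on knockout 03. Of the brightest of them, Ttr and Gcg were lowest on that array and Sst was not. The part of these cells in the collagen differences was not tested.

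**Figure D4:**
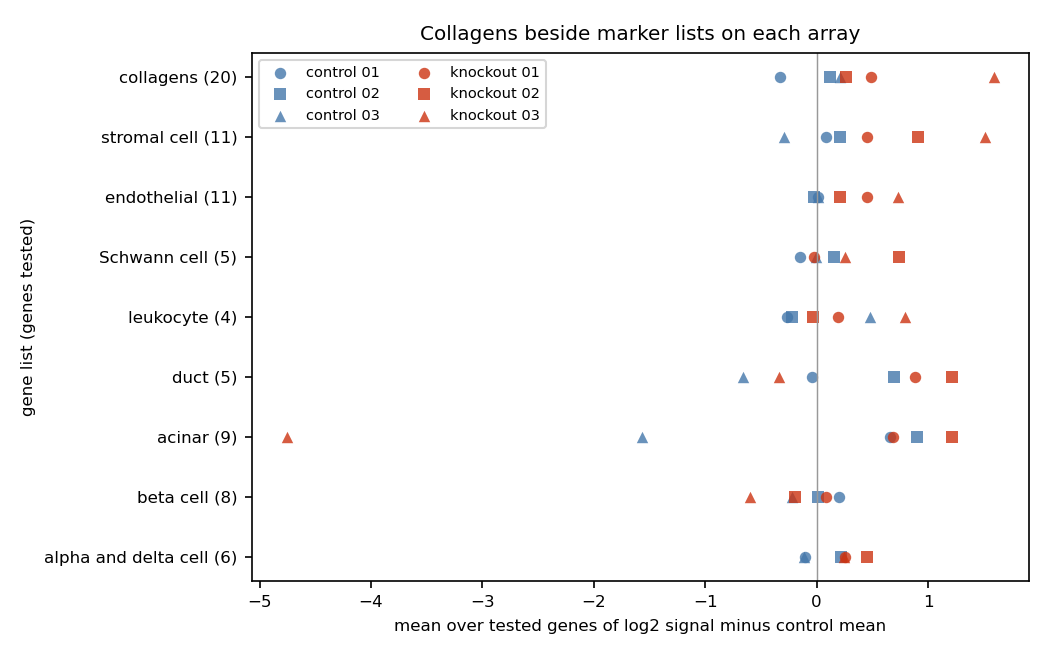
Mean over the tested genes of each list of the log2 signal minus the control mean, on each array, with controls in blue, knockouts in red and the array number as the symbol. Knockout 03 lies highest for collagens (1.59), stromal (1.51), leukocyte (0.80) and endothelial markers (0.73). It lies lowest for acinar (-4.75) and beta-cell markers (-0.59).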

How the data were processed

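The deposited values are linear MAS5 signals, an intensity for each probe set. The submitters' processing notes name GCOS 1.4 and MAS5. The 2% trimmed mean was 500.003 on every array, and the arrays' number limits the precision. Of 45037 probe sets without controls, 34945 had exactly 1 symbol, 932 several and 9160 none in the platform annotation; Entrez identifiers matched 34741 to RefSeq (GRCm38.p6) and changed 0 symbols. A gene outside the collagens used a probe set ending in _x_at only where it had no other. Log2 signals, with nothing added, went into limma 3.58.1 (R 4.3.3, statmod 1.5.0; eBayes with an intensity trend) and Benjamini-Hochberg adjustment over the genes tested. Adjusted p-values and standard errors are limma's.

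On simulated data for this comparison with 11609 genes, limma called 55 of 100 genes changed by 2 and 90 of 100 changed by 4 on the log2 scale. It also called 9 genes that had not been changed. The simulated noise was independent between genes. Both sizes exceed the largest difference of a tested collagen (1.65), so recovery at the sizes seen in collagens was not measured. Deviations from the group means correlated within same-numbered pairs at 0.148, 0.417 and 0.425, so the numbers pair the samples by the rule that each exceeds 0.1; control 01 with knockout 02 reached 0.136. A pair's share is its mean difference divided by the sum over the 3 pairs, and can be negative. Collagens and lists were chosen with earlier results of these data known. All collagens with a probe set could be named, and of each other list the up to 4 tested genes of lowest p or the 3 brightest markers. The alternatives were quantile normalization, a pseudocount of 32, other filters, averaging the probe sets of each gene, the replicate block, array weights, and leaving out arrays.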

Additional observations from a re-analysis of the deposited data

How the results depend on the processing

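No collagen passed under any of the 15 alternatives, where between 0 and 6 collagens had an unadjusted limma p under 0.05. The number of genes passing over the whole table was 2, and it was 4 with a pseudocount of 32, 1 with the stricter filter (signal above the median on all 6 arrays), 6 with the replicate block, 0 without both arrays numbered 03, and between 0 and 5 when 1 array was left out. The block changed no collagen's call. The medians of the fibrillar, type IV and other collagens stayed above 0 under every alternative run, with ranges of 0.18 to 1.43, 0.05 to 0.53 and 0.54 to 1.04. When the probe sets of each gene were averaged, the pair 03 mean of the other collagens moved from 1.08 to 0.68, and the pair 02 mean of the fibrillar collagens was 0.53 in place of -0.05.

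Of 286 values of single collagens under an alternative, 271 kept their direction and 15 did not, none of them past the threshold. The replicate block and the other filters leave a gene's log2 difference as it was, so those values could not change direction. Leaving out _x_at probe sets could change only Col6a2. The count of 271 is therefore no measure of stability. Without knockout 03 the log2 difference was -0.11 for Col4a1, -0.0035 for Col5a3, -0.10 for Col6a2 and -0.37 for Col6a3. Without control 01 it was -0.10 for Col5a3 and -0.14 for Col6a3, and without knockout 01 it was -0.057 for Col5a3. Without control 02 it was -0.056 for Col6a3, -0.19 for Col15a1 and -0.17 for Col27a1. For Col7a1 it was -0.15 with array weights, -0.15 without control 03, -0.35 without knockout 01 and -0.39 without knockout 02. The highest values with 1 array left out were 0.44 for Col4a1, 0.41 for Col5a3, 0.97 for Col6a2, 1.12 for Col6a3, 0.84 for Col7a1, 1.64 for Col15a1 and 0.42 for Col27a1. For Col14a1 the difference was -0.0027 without both arrays numbered 03. The alternative without _x_at probe sets, which moved Col6a2 to 2.22, was chosen after seeing the data. Dim probe sets limit the 22 collagens that were not tested.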
